A study of Mus musculus with 8 samples.

Results

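The miR-200 family of microRNAs (miRNAs) was followed in embryonic mouse footpad skin, the skin in which sweat glands form. It comprises 5 mature miRNAs, mmu-miR-200c-3p, mmu-miR-141-3p, mmu-miR-429-3p, mmu-miR-200a-3p and mmu-miR-200b-3p (written without the species prefix from here on), chosen by name from the array's annotation out of 1881 mouse miRNAs. They were read by 10 of the array's 4415 mouse miRNA probes, and these occupy 150 of the 56430 mouse miRNA spots of an array. Footpads of Dicer conditional knockout (cKO) embryos were set beside those of wild-type embryos, both on a C57BL6 strain background, at embryonic days E16.5 and E17.5. Each of the 4 groups had 2 single-colour Agilent arrays, and each array carried RNA pooled from the footpads of 3 to 5 embryos. The labels do not name the promoter or cell type in which Dicer was deleted, and the array has no probe for Dicer mRNA. The p-values below rest on how pools differed, not single embryos.

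Dicer is the endonuclease that cuts precursor hairpins to release mature miRNAs. A mature miRNA finds its target mRNAs mainly through its seed, the bases near its 5′ end. The miR-200 family is known as an epithelial family, abundant in epidermis and low in mesenchyme. It represses the transcription factors Zeb1 and Zeb2, which silence E-cadherin, and so restrains epithelial-mesenchymal transition, the loss of epithelial adhesion and polarity.

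The mature sequences are printed because the family falls into 2 seed groups, and because the members are alike enough for their probes to resemble each other. They were taken from RefSeq (GRCm38.p6), where 5 of 5 members matched by name, with the seed (bases 2 to 8) in capitals.
miR-200c-3p: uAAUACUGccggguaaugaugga
miR-200b-3p: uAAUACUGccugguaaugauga
miR-429-3p: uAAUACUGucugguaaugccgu
miR-141-3p: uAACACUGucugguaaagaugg
miR-200a-3p: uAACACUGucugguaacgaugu

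The first 3 share one seed and the other 2 share the second, which differs from it by U4C, counted from the 5′ end. Among the 1679 mature mouse miRNAs of the RefSeq table, 0 outside the family have either seed. The hairpins lie at 2 places of the genome, all on the minus strand. Those of miR-200b, miR-200a and miR-429 lie within 1846 bases at chr4:156053905-156055750, inside the span of the long non-coding RNA gene Gm13648. Those of miR-200c and miR-141 lie within 477 bases at chr6:124717914-124718390, between the protein-coding genes Phb2 and Ptpn6 and overlapping neither. Each place thus holds members of both seed groups. The mature miR-200c-3p (chr6:124718324-124718346) differs from miR-200b-3p (chr4:156055685-156055706) by G11U and G22A over their shared 22 bases. Likewise miR-141-3p (chr6:124717917-124717938) differs from miR-200a-3p (chr4:156054911-156054932) by A17C and G22U. The remaining member, miR-429-3p (chr4:156053916-156053937), differs from each of the others at 4 or 5 bases.

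Each member had 2 probes of 15 to 19 bases, complementary to the 3′ part of the miRNA. The brighter probe of each member is printed as the scanner files give it, with capitals at the bases that have no partner in the most similar other member.
miR-200c-3p probe: TCcatcattaccCggc
miR-200b-3p probe: TcatcattaccAggcag
miR-429-3p probe: acGGcAttaccagacagtA
miR-141-3p probe: CcatcTttaccagacag
miR-200a-3p probe: AcatcGttaccagacagt

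The probes of miR-200b-3p, miR-141-3p and miR-200a-3p had 2 such bases, and those of miR-200c-3p and miR-429-3p had 3 or 4. Against the other 1674 mature mouse miRNAs of the table, a family probe had at least 4 unpaired bases. Whether RNA of one member bound the probe of another was not tested, so a member's signal may hold a part of its nearest relative's.

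All 5 members were far lower in cKO footpads than in wild-type footpads, at both stages. Averaged over the stages, the scaled signal in cKO was 9.74% of the wild-type signal for miR-200c-3p, 11.2% for miR-141-3p, 13.1% for miR-429-3p, 21.9% for miR-200a-3p and 29.3% for miR-200b-3p. Levels below are log2 of the signal after each array was divided by the 75th percentile of its 474 probes detected on all 8 arrays. In bulk footpad skin, fewer epithelial cells and less of a miRNA per cell cannot be told apart.

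The chromosome 6 member miR-200c-3p measured −3.81 and −3.92 in cKO footpads at E16.5, against −0.69 and −0.73 in wild-type footpads, on the log2 level scale. At E17.5 it measured −4.22 and −3.79 in cKO footpads, against −0.53 and −0.35 in wild-type footpads. The 4 cKO arrays lay far below the 4 wild-type arrays, and the cKO values were near the floor of −4.24, to which lower values were raised. Averaged over both stages, miR-200c-3p fell by 3.36 ± 0.109 on the log2 scale (SE; 95% interval −3.64 to −3.08), a 10.3-fold difference (limma, Benjamini-Hochberg adjusted p = 2.26e-05).

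Its neighbour miR-141-3p, with the other seed, had log2 levels of −3.21 and −3.25 in cKO footpads and −0.31 and −0.30 in wild-type footpads at E16.5. Its E17.5 log2 levels were −3.65 and −3.27 in cKO, against −0.17 and 0.02 in wild type. Again no cKO array reached a wild-type array. The fall over both stages was 8.91-fold, or a log2 change of −3.16 ± 0.0980 (SE; 95% interval −3.41 to −2.91; limma adjusted p = 2.26e-05).

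On chromosome 4, miR-429-3p had log2 levels of −3.72 and −3.56 in cKO footpads and −0.80 and −0.89 in wild-type footpads at E16.5. The E17.5 levels were −4.11 and −3.66 in cKO, against −0.86 and −0.76 in wild type, and the genotypes did not overlap. Its log2 change over both stages was −2.94 ± 0.115 (SE; 95% interval −3.23 to −2.64), a 7.66-fold fall (limma adjusted p = 4.25e-05).

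For miR-200a-3p the log2 levels at E16.5 were −2.78 and −2.79 in cKO footpads and −0.68 and −0.72 in wild-type footpads. At E17.5 they were −3.09 and −2.79 in cKO, against −0.67 and −0.63 in wild type. The groups stood apart here too, with a smaller gap. The log2 change over both stages was −2.19 ± 0.0716 (SE; 95% interval −2.37 to −2.01), a 4.56-fold fall (limma adjusted p = 2.26e-05).

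The member that kept most of its signal was miR-200b-3p, with log2 levels of −1.75 and −1.71 in cKO footpads and −0.07 and −0.24 in wild-type footpads at E16.5. At E17.5 its log2 levels were −2.09 and −1.82 in cKO, against −0.01 and 0.03 in wild type. All of its cKO values lay well above the floor. It fell 3.41-fold, a log2 change of −1.77 ± 0.0747 (SE; 95% interval −1.96 to −1.58; limma adjusted p = 5.15e-05).

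**Figure D1:**
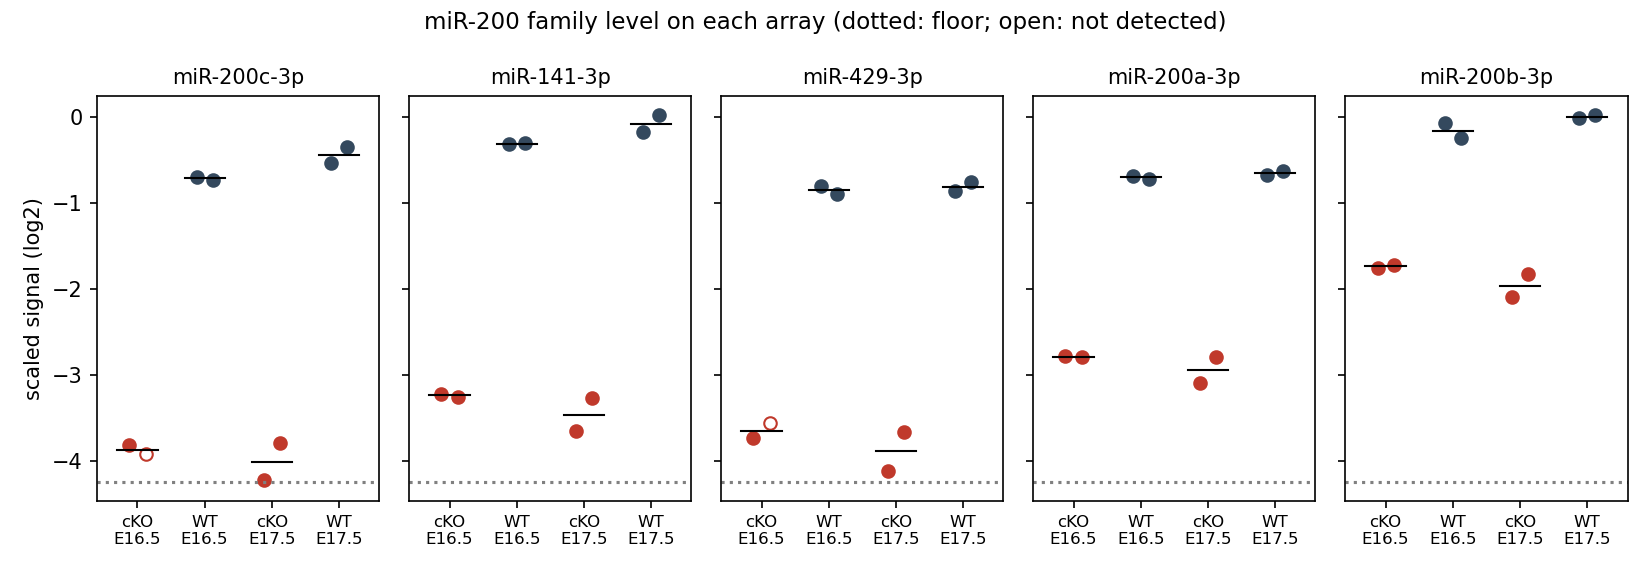
Scaled log2 signal of each member (one panel each) on every array, with cKO in red and wild type (WT) in dark blue at each stage. Points are arrays, 2 per group, short lines are group means, the dotted line is the floor at −4.24 and open points are arrays on which the probe was not detected. In all 5 panels the cKO points lie below every wild-type point. Over both stages 60.3% of the 385 tested miRNAs differed between genotypes (limma adjusted p under 0.05). How many of them stood apart in this way was not counted.

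The 5 falls were among the largest of all tested miRNAs, of which more were higher than lower in cKO in the main scaling. Of 385 tested miRNAs, 14.5% were lower in cKO over both stages at an adjusted p under 0.05 (56 miRNAs) and 45.7% were higher (176), and the median log2 change of all 385 was 0.17. Ordered from the largest fall, miR-200c-3p ranked 1, miR-141-3p 3, miR-429-3p 5, miR-200a-3p 6 and miR-200b-3p 9. Values below the floor were raised to it, so a dim miRNA could show only a limited fall in this order. One such was miR-203-5p, with a log2 change of −2.05 and its cKO values at the floor. The direction of the many small changes elsewhere depended on the scaling. With arrays scaled on their 5 positive control probes, 179 miRNAs were lower and 6 higher, and the median of all tested moved to −0.17. With the 75th percentile of all probes the split was 44 lower and 5 higher, and with no scaling 54 lower and 6 higher. The family fell under every one of these scalings. Set against the median change of the 385, the log2 change of miR-200c-3p was −3.52 in the main scaling and −3.59 on the control probes, and that of miR-200b-3p was −1.94 and −2.01.

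**Figure D2:**
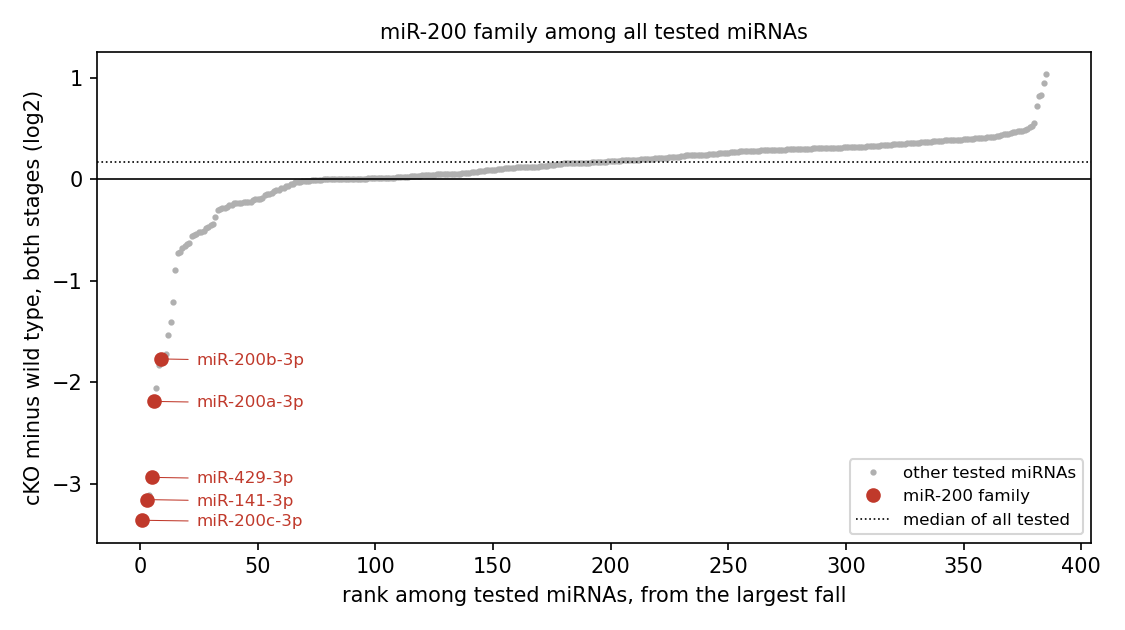
Log2 change (cKO minus wild type, both stages) of the 385 tested miRNAs against their rank, from the largest fall. Red points are the 5 family members, at ranks 1, 3, 5, 6 and 9, grey points are the other miRNAs, and the dotted line is the median of all tested at 0.17.

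The members also fell at each stage taken alone. At E16.5, where 15.1% of tested miRNAs were lower in cKO, the members' log2 changes ran from −3.15 ± 0.154 for miR-200c-3p to −1.58 ± 0.106 for miR-200b-3p (SE), with limma adjusted p between 0.000156 and 0.000416. At E17.5, where 10.1% were lower, they ran from −3.56 ± 0.154 for miR-200c-3p to −1.96 ± 0.106 for miR-200b-3p, with limma adjusted p between 0.000117 and 0.000212. The order of the members was the same at both stages, although neighbours in it had overlapping 95% intervals, save for miR-429-3p and miR-200a-3p, whose intervals did not overlap at either stage. Every member's estimate was more negative at E17.5, by 0.21 (miR-200a-3p) to 0.46 (miR-141-3p) on the log2 scale. None of these differences between stages passed the test of the difference itself (limma adjusted p 0.177 to 0.463), which 1.56% of all tested miRNAs passed. At an unadjusted p under 0.05 there was 1 member, miR-200b-3p, and 106 of the 385 miRNAs.

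**Figure D3:**
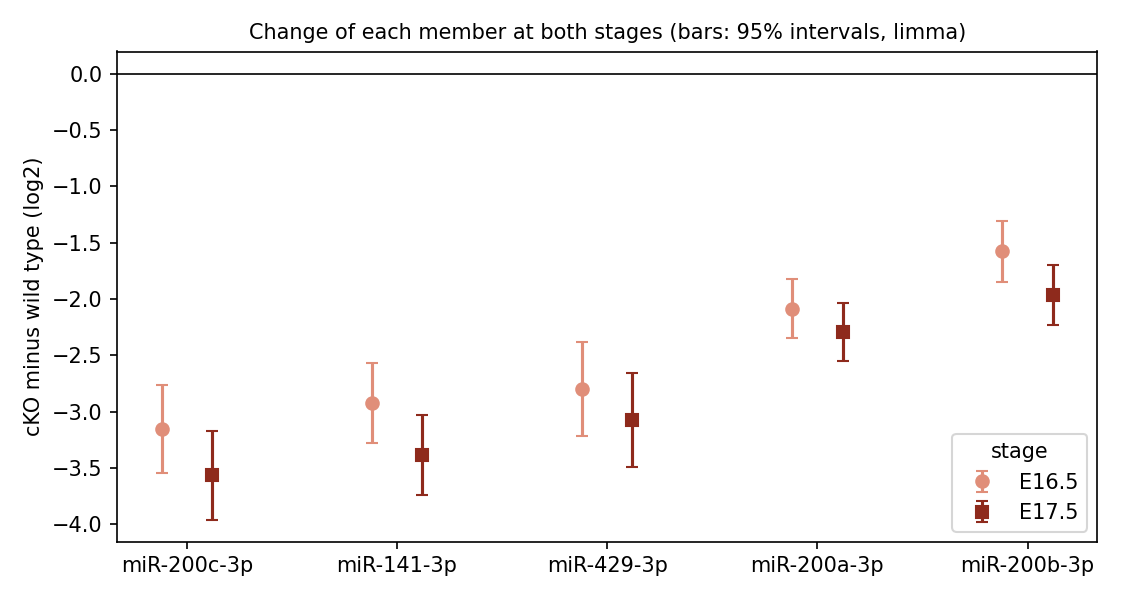
Log2 change (cKO minus wild type) of each member at E16.5 (circles) and E17.5 (squares), with 95% intervals from the limma fit to 2 arrays per group. All 10 intervals lie below 0, and each member's intervals at the 2 stages overlap.

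Within a genotype, no member was called different between the stages. In cKO footpads the log2 levels at E17.5 minus those at E16.5 lay between −0.24 (miR-429-3p) and −0.14 (miR-200c-3p). Of the members 0 of 5 passed the limma test, while 35.3% of all tested miRNAs did. At an unadjusted p under 0.05 there were 0 of 5 members and 190 of the 385 miRNAs. In wild-type footpads the same differences lay between 0.04 (miR-429-3p) and 0.27 (miR-200c-3p). There too 0 of 5 members passed, against 14.8% called among all tested miRNAs. An unadjusted p under 0.05 was reached by 0 of 5 members and 138 of the 385 miRNAs. The 95% interval of the wild-type difference of miR-200c-3p was −0.12 to 0.66. These stage differences depended on the scaling. With no scaling 4 members were higher at E17.5 in wild type, as were 181 of the 385 tested miRNAs. With control-probe scaling 4 members were higher, as were 97 of the 385.

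The share of the summed mouse miRNA signal that came from the family showed the size of the loss in another way. It was 0.0384% and 0.0401% in cKO footpads at E16.5, against 0.249% and 0.209% in wild-type footpads. The E17.5 shares were 0.0355% and 0.0426% in cKO footpads, against 0.298% and 0.325% in wild-type footpads. Over 4 arrays each, the share averaged 0.0391% ± 0.00298 in cKO and 0.271% ± 0.0515 in wild type (SD, n = 4). By signal, the members ranked 155 to 333 among the array's miRNAs on cKO arrays and 73 to 118 on wild-type arrays. Probes differ in how well they bind, so these shares and ranks describe signal and not numbers of molecules.

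The members did not fall in proportion to each other. The log2 ratio of miR-200c-3p to miR-200b-3p, which share a seed and differ at 2 of the 22 bases compared, was −2.20 to −1.97 on the cKO arrays and −0.62 to −0.38 on the wild-type arrays. Its mean was −2.09 ± 0.0989 in cKO and −0.50 ± 0.101 in wild type (SD, n = 4), a difference of −1.59. The gap was therefore many times the spread between arrays. Among the chromosome 4 members, the log2 ratio of miR-200b-3p to miR-429-3p was 1.92 ± 0.0918 in cKO and 0.75 ± 0.0855 in wild type (SD, n = 4), a difference of 1.17. That of miR-200a-3p to miR-429-3p differed by 0.75 between genotypes, and that of miR-200b-3p to miR-200a-3p by 0.42. On chromosome 6, the ratio of miR-200c-3p to miR-141-3p differed by −0.20, the smallest of the 10 differences in this processing (with normexp the smallest, 0.0185, was that of miR-200b-3p to miR-200a-3p): it averaged −0.59 ± 0.0613 in cKO and −0.39 ± 0.0293 in wild type (SD, n = 4). Of the 10 ratios, 9 did not overlap between the genotypes, the exception being miR-141-3p to miR-429-3p. The 10 ratios share members and are not independent. How often ratios of other miRNAs stood apart in this way was not counted. It may be common, because 60.3% of the 385 tested miRNAs differed between genotypes over both stages (limma adjusted p under 0.05). Sharing a seed did not go with a like fall: the signal left in cKO was 9.74%, 13.1% and 29.3% in the one seed group, and 11.2% and 21.9% in the other. These ratios were not tested, because the members were chosen with results known.

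The ratios depended on how background and outlier spots were treated. Over the alternatives tried, 8 of the 10 differences kept one sign. The difference for miR-200c-3p to miR-141-3p turned to 0.15 with normexp and to 0.27 with outlier spots kept, and that for miR-200c-3p to miR-429-3p turned to 0.08 with outlier spots kept. With the normexp background model and an offset of 50, the log2 difference between genotypes in the ratio of miR-200c-3p to miR-200b-3p shrank to −0.46. The members' own log2 changes over both stages then ran from −1.90 (miR-141-3p) to −1.29 (miR-200b-3p), with −1.75 for miR-200c-3p, and 5 of 5 passed. With the spots marked as outliers kept, the same ratio differed by −1.02 and miR-200c-3p at E16.5 gave −2.08 (limma adjusted p = 0.0658). The normexp offset of 50 was larger than the cKO signal of the brighter miR-200c-3p probe before scaling, 19.0 to 27.1 units. An added constant narrows the ratios of dim signals, and its part in the smaller differences with normexp was not tested.

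**Figure D4:**
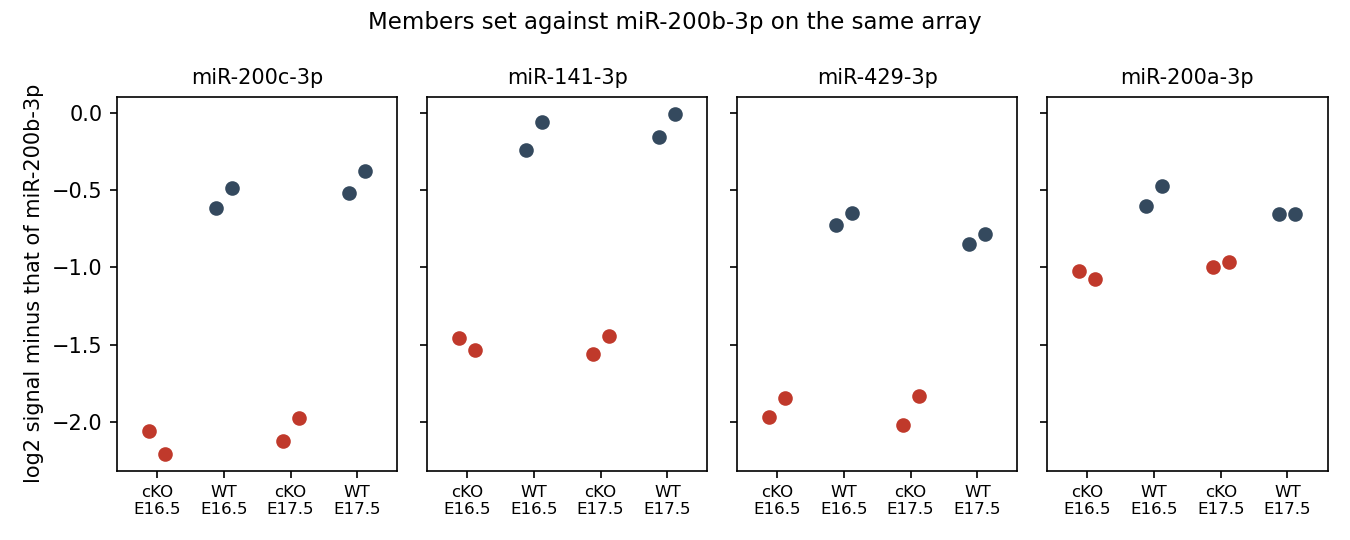
Log2 signal of 4 members minus that of miR-200b-3p on the same array, by group, with cKO in red and wild type (WT) in dark blue, 2 arrays per group. In each panel the cKO points lie below the wild-type points, with a mean difference of −1.59 for miR-200c-3p and −1.39 for miR-141-3p.

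The spots show how close to background the cKO signal came. Before scaling, the brighter miR-200c-3p probe gave 20.5 and 19.0 units in cKO footpads at E16.5, against 246 and 171 units in wild-type footpads. The E17.5 signals were 21.9 and 27.1 units in cKO footpads, against 347 and 410 units in wild-type footpads. In cKO 42 of 55 of its spots were well above background by the scanner's own test, and in wild type 58 of 58 were. Its dimmer probe gave 10.6 to 13.3 units in cKO, with 6 of 59 spots well above background, and 110 to 264 units in wild type, with 59 of 59. By contrast, both probes of miR-200b-3p were well above background in all spots kept (58 of 58 and 59 of 59 in cKO, 59 of 59 and 58 of 58 in wild type, for the brighter and the dimmer).

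Of the family's 145 spots kept on replicate 2 of cKO at E16.5, 74 were not well above background, against 22 to 29 on each of the other 3 cKO arrays and 0 on each wild-type array. On replicate 2 of cKO at E16.5, 0 of 13 spots of the brighter miR-200c-3p probe and 7 of 15 of the brighter miR-429-3p probe were well above background. On replicate 1, 15 of 15 were for each of these probes. Yet the signals were alike, with 24.4 and 21.8 units for miR-429-3p on replicates 2 and 1. The lowest spot called well above background had 25.6 units on replicate 2 and 14.5 on replicate 1. With cKO arrays set at the lowest signal of any detected probe wherever that exceeded the member's own, miR-200c-3p was at least 9.66-fold lower over both stages, and at least 7.88-fold lower at E16.5, where 1 of 2 cKO arrays detected it. The bound for miR-429-3p at E16.5, also detected on 1 of 2 arrays, equalled its measured 6.96-fold fall. Without that array 5 of 5 members remained lower in each genotype comparison.

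**Figure D5:**
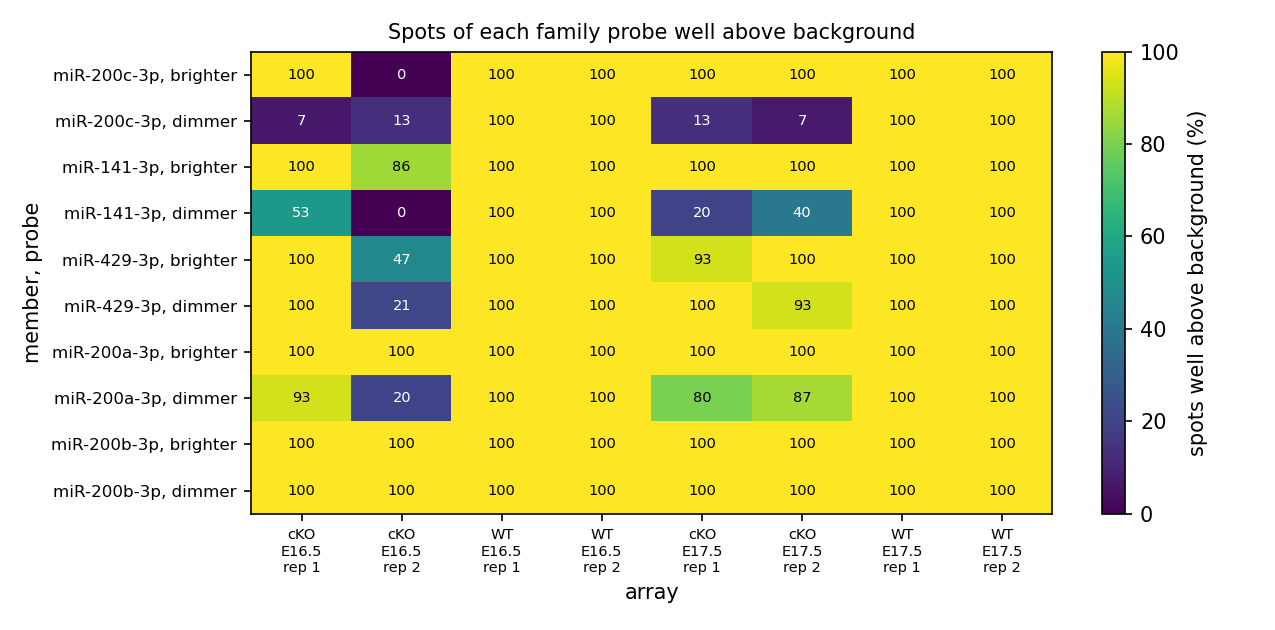
Percentage of kept spots well above background, for the brighter and dimmer probe of each member (down the page) on each array (across). All wild-type cells are at 100%, the miR-200b-3p cells are at 100% on every array, and the lowest cKO values are those of miR-200c-3p and miR-141-3p and of replicate 2 at E16.5.

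Both probes of every member were lower in cKO. Fitted with all 719 tested probes, the log2 changes over both stages were −3.36 and −3.04 for the brighter and dimmer probes of miR-200c-3p. The dimmer miR-200c-3p probe lay at the floor on 4 of 4 cKO arrays, as did the dimmer miR-141-3p probe, so their changes are set by the floor and say nothing of agreement in size. The changes were −3.16 and −3.07 for miR-141-3p, −2.94 and −2.94 for miR-429-3p, −2.19 and −2.12 for miR-200a-3p, and −1.77 and −1.92 for miR-200b-3p. The 8 probes not at the floor on every cKO array passed in limma, with adjusted p between 1.48e-05 and 4.61e-05. Of all 719 probes, 437 passed in either direction.

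The other arm of each hairpin, the 5p strand that is mostly discarded when the 3p strand is loaded, had no spot well above background. Over the 18 probes of the 5 arms the counts were 0 of 565 spots in cKO and 0 of 566 in wild type. None of the 5p arms was tested. Whether the 5p arms differed between genotypes was therefore not measurable on these arrays.

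By the distance between array profiles, the miRNAs most like the family were 2 other epidermal miRNAs. For this, each miRNA's log2 levels over the 8 arrays were centred on their mean and compared with the centred mean profile of the members, by the root mean square distance. miR-205-5p, known for promoting keratinocyte migration and survival, was nearest at 0.238, with a log2 change of −3.12 ± 0.0949 (SE). miR-203-3p, which represses p63 and promotes keratinocyte differentiation, followed at 0.268, with a log2 change of −3.19 ± 0.117 (SE). Both are nearer to the mean profile than the members miR-200c-3p (0.344) and miR-200b-3p (0.458). The next 4 were miR-203-5p (0.337), miR-31-5p (0.450), miR-182-5p (0.466) and miR-34a-5p (0.484). The distance depends on the size of the changes, which the Pearson correlation r with the mean profile does not. Of these 6 miRNAs, miR-34a-5p had the highest r (0.9997), above miR-203-3p (0.9991) and miR-205-5p (0.9982). miR-203-5p was detected on 0 of 4 cKO arrays and was at least 4.38-fold lower in cKO (−2.05 on the log2 scale with cKO at the common floor), and miR-31-5p was detected on 1 of 4 and was at least 3.57-fold lower.

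As a list, the other skin epithelial miRNAs fell with the family. Over both stages 5 of 5 were lower in cKO, against 14.5% of all tested miRNAs, with a median log2 change of −1.76, against 0.17 for all tested miRNAs. Besides miR-205-5p and miR-203-3p these were miR-182-5p (log2 change −1.76 ± 0.0966, SE), miR-96-5p (−1.41 ± 0.101, SE) and miR-183-5p. The last was detected on 0 of 4 cKO arrays and was at least 3.07-fold lower (−1.54 on the log2 scale with cKO at the common floor). As miR-183-5p entered the test through the wild-type arrays alone, its call was partly set by the filter and adds little to the list's count. The 5 were all detected on each wild-type array, as were the 5 family members. So were all listed markers of dermal mesenchyme, skeletal muscle and blood, so detection is no check of the tissue label. The summed scaled signal of the 5 other skin epithelial miRNAs was 2.28 to 3.59 in cKO and 23.6 to 28.0 in wild type.

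Of 8 miRNAs listed as restraining epithelial-mesenchymal transition, 6 were tested and 3 were lower in cKO over both stages, where 14.5% of all tested miRNAs were lower and 45.7% higher. These were miR-205-5p and miR-203-3p, again, and miR-34a-5p, a p53 target that represses Snail, with a log2 change of −1.72 ± 0.0525 (SE). The other 3 did not pass, and the list's median log2 change was −0.87. With quantile scaling 4 of the 6 were lower and 1 higher, where 67 of all 385 tested were lower and 151 higher. With control-probe scaling 5 of the 6 were lower, as were 179 of the 385. Of 6 miRNAs linked to promoting the transition, 4 were tested, 2 were lower and none was higher, with a median of −0.13. The lower ones were miR-221-3p and miR-21a-5p. In the main processing miR-221-3p was at least 2.10-fold lower and detected on 2 of 4 cKO arrays, and miR-21a-5p had a log2 change of −0.26 ± 0.0475 (SE). miR-221-3p lost its call with outlier spots kept (log2 change −0.27, limma adjusted p = 0.716), and miR-21a-5p with no scaling (−0.56, adjusted p = 0.0509) or all-probe scaling (−0.54, adjusted p = 0.0701), where its estimated change was larger. With control-probe scaling 3 of the 4 tested miRNAs linked to promoting the transition were lower.

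Markers of other cell types moved by far less than the family. Of 5 miRNAs of dermal mesenchyme, 4 were higher in cKO over both stages (45.7% of all tested were), with a median log2 change of 0.34 and a summed scaled signal of 47.9 to 51.4 in cKO and 35.4 to 41.7 in wild type. The 3 skeletal muscle markers were higher (median 0.32), as were both endothelial ones (median 0.44) and 2 of 4 of blood (median 0.21). Of the 3 markers of nerve and glia 1 was tested, and it did not pass. With control-probe scaling no marker of these lists was higher and 3 were lower, 1 each of dermal mesenchyme, blood, and nerve and glia, and the dermal median was −0.07. The nerve and glia marker was also lower with quantile scaling (−0.12). The part that such shifts had in the family's fall was not tested.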

How the data were processed

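Per the file headers, the authors' images were extracted with Agilent Feature Extraction 11.5.1.1, and the deposited scanner files hold background-subtracted, spatially detrended fluorescence intensity per spot, in arbitrary linear units, unscaled between arrays. The deposited value table, also linear intensity, equalled it within 0.02 for all signals above 0 and served as an alternative.

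Spots marked as outliers were left out and the others averaged per probe. A probe was detected on an array when over 50% of its spots were well above background. Each array was divided by its 75th percentile over the 474 probes detected on all 8 arrays, values under the median 5th percentile of detected probes were raised to that floor (−4.24 on the log2 scale), and each miRNA was represented by its probe of highest mean. Testing needed detection on both arrays of some group, which left 385 miRNAs, and all 5 members passed this filter. Group means were fitted with limma 3.58.1 in R 4.3.3 (eBayes with trend, 4 residual and 1.08 prior degrees of freedom), with Benjamini-Hochberg adjustment within each of 6 contrasts at 0.05. The script was tested on simulated data.

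The number of arrays limits the precision. Each group fills a column of a single slide, so slide position and group cannot be told apart. Slide row goes with replicate number, and within rows the log2 change over both stages was −3.32 and −3.40 for miR-200c-3p and −1.66 and −1.88 for miR-200b-3p. Between 279 and 384 miRNAs were detected per array. The fewest were on replicate 2 at E16.5, with 281 in cKO and 279 in wild type.

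The members, the lists, the rule for named miRNAs (members, lists and the 6 nearest profiles) and the tests were chosen with earlier results of these data known. For a bound ("at least"), a cKO value below the lowest detected probe of its array was raised to that probe's signal. On some arrays this lies below the common floor used in the fit, and the resulting bound may then be larger than the change from the fit. Bounds hold for the main processing only and are not limits under other treatments of background or outlier spots. Sequences and coordinates are RefSeq's (GRCm38.p6). The probe positions of the deposited files were not used, because in 80 of 80 minus-strand hairpins they put the 3p arm above the 5p arm. Other tools were data.table (version 1.17.8), jsonlite 2.0.0, Python 3.11.15, pandas 2.3.3, numpy 2.4.6 and matplotlib 3.10.9.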

Additional observations from a re-analysis of the deposited data

How the results depend on the processing

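The family's lower level in cKO held for 5 of 5 members in every genotype comparison under all alternatives but 2. With only miRNAs detected on all 8 arrays, 3 of 3 members left in the test were lower in each genotype comparison, since that filter removed miR-200c-3p and miR-429-3p. Leaving out each array in turn gave 5 of 5 (lowest 5, highest 5). The other was keeping outlier spots, which ended the call of miR-200c-3p at E16.5 (−2.08, adjusted p = 0.0658, limma).

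The log2 difference in family share, −2.77, was −2.55 with quantile scaling and −1.77 with normexp, and −2.89 to −2.68 without each array in turn. The ratio of miR-200c-3p to miR-200b-3p, −1.59, was −0.46 with normexp, −1.02 with outlier spots kept, −1.83 with the scanner's total gene signal and −1.36 with the mean of both probes, and −1.63 to −1.55 without each array.

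The stage comparisons were sensitive, and the cause was not tested. In wild type 4 members differed between stages with no scaling, 4 with control-probe scaling and 2 with normexp, against 0. In cKO 5 differed with normexp, and 0 to 1 without each array (miR-200a-3p, −0.31, without cKO E17.5 replicate 2). The effect differed between stages for 3 members with normexp. Of all 385 tested miRNAs, 185 differed between stages in wild type with no scaling and 106 with control-probe scaling. With normexp 161 of the 385 differed in wild type and 178 in cKO, and the effect differed between stages for 13. In cKO the sign of the stage difference turned with no scaling (0.25 for miR-200c-3p, 0.21 for miR-141-3p, 0.22 for miR-200b-3p, 0.29 for miR-200a-3p, 0.20 for miR-429-3p) and with all-probe scaling (0.10, 0.0439, 0.0492, 0.12 and 0.0304, in that order). It also turned with quantile scaling (miR-200c-3p 0.0897, miR-200a-3p 0.00243), total gene signal (miR-200c-3p 0.0801) and without cKO E17.5 replicate 1 (miR-200c-3p 0.0733, and −0.35 to 0.0733 over the arrays left out). In wild type that of miR-429-3p turned with normexp (−0.0186) and without WT E16.5 replicate 2 (−0.0111) or WT E17.5 replicate 2 (−0.0160, and −0.0160 to 0.0866 over the arrays left out).

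Over all tested miRNAs, the 232 calls over both stages became 49 with all-probe scaling and 60 with no scaling. At E16.5 the 196 calls became 22 and 21, 108 with control probes, 88 with only the arrays compared and 115 without cKO E16.5 replicate 1, and at E17.5 the 177 became 36 and 51, and 116 without WT E17.5 replicate 2. The 6 stage differences of the effect ranged from 0 to 42, the 136 stage calls in cKO from 6 to 178 and the 57 in wild type from 5 to 185.

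With the replicate number as a block, 220 miRNAs were called over both stages and 5 of 5 members were lower. It changed no member's call. Deviations from the group means correlated at r −0.14 to 0.28 between replicate 1 arrays. With 2 arrays per group this cannot settle whether the numbers pair the samples. At E16.5 both replicate 2 arrays had fewer spots well above background (13.4% in cKO, 13.3% in wild type) than replicate 1 (16.9% in each). Without the filter, miRNAs at the floor on all arrays were left out, since the trend could not be fitted to them.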
